A study of Mus musculus with 9 samples.

Results

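Retinoid synthesis and binding genes were described here through 9 members: Stra6, Rbp7, Crabp2, Rdh10, Dhrs3, Aldh1a1, Aldh1a3, Cyp26b1 and Rarb. All 9 were found by symbol among the 54456 gene names of the authors' deposited count table. They were chosen on their measured levels in these same 9 libraries, so their levels and differences are given as a description and carry no test. 7 of the 9 passed the filter on low counts, and Stra6 and Rarb did not.

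The libraries came from wild-type mouse mammary epithelial cells, sorted by flow cytometry into luminal and basal cells and left to form aggregates. Mixed aggregates held both kinds, with 50% given as the share of the mixture, luminal aggregates held luminal cells alone, and basal aggregates held basal cells alone, with 3 libraries of each. Every aggregate lay in 80% Matrigel beside a heparin sulfate bead of 100 to 150 µm soaked in 100 µg/mL FGF10, a secreted growth factor that mammary epithelium moves toward. Migration lasted 56 h by the treatment label and 55 h by the sample titles. The question stated for the series was what each cell kind contributes to collective migration at the mRNA level. No aggregate was kept without FGF10, so all values compare kinds of aggregate. Ages of the mice, and whether the 3 libraries of a kind stem from different mice, are not stated in the labels, so p-values measure only the spread between libraries.

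Retinoids are vitamin A and its derivatives. Retinol enters a cell through the receptor STRA6 or by other routes, is held by cellular retinol-binding proteins, and is oxidised first to retinal and then to retinoic acid. Retinoic acid is carried to nuclear receptors, the RARs paired with RXRs, which bind direct repeats of a short half-site near their target genes, and CYP26 enzymes break it down. In mammary epithelium, aldehyde dehydrogenase activity of the ALDH1A family is widely used to enrich progenitor cells.

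Promoters from RefSeq (build GRCm38.p6), each 250 bases before to 50 after an annotated start, were found for 6 members in 12 windows. Aldh1a3, Crabp2 and Rdh10 were not matched. Each window was searched on both strands for direct repeats of the half-site AGGTCA or its variants, which were AGTTCA as well as GGGTCA as well as GGTTCA, with 1, 2 or 5 bases between the half-sites. A repeat with 5 bases between was present in 0.0974% of the 32851 promoters, with 1 base in 0.222%, with 2 bases in 0.268%, and with any of these in 0.588%. Of the members, only Rarb held a match in these windows. Among the other pathway genes, 38 had a promoter and 2 held a match, of which Cyp26a1, encoding a paralog of CYP26B1, had the same spacing. The windows of both are shown because they hold the response element type known for retinoic acid receptors, with Rbp7 for contrast as the member furthest above both pure kinds in mixed aggregates. Capitals mark the repeat, and positions and strands here are those of GRCm38.p6, whereas the gene positions given with the results are in mm39.
Rarb promoter, chr14:16575427-16575726, minus strand: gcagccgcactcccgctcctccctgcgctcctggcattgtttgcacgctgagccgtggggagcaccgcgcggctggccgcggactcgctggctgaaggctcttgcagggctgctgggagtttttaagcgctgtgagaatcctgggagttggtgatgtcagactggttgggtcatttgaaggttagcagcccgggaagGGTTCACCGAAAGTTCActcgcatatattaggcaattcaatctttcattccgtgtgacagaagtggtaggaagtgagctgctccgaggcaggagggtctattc
Cyp26a1 promoter, chr19:37697558-37697857, plus strand: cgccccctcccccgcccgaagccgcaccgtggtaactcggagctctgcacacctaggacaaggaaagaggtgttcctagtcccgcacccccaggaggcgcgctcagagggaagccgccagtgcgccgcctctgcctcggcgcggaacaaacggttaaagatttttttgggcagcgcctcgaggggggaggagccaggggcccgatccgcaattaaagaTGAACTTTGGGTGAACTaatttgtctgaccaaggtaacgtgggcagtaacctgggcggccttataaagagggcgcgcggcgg
Rbp7 promoter, chr4:149454919-149455218, minus strand: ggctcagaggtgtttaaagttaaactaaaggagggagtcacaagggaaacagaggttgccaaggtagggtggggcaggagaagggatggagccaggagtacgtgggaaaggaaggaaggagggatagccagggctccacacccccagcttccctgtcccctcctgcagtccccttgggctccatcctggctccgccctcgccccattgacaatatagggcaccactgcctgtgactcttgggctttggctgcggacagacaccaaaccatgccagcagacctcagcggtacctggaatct
The Rarb repeat began 53 bases and the Cyp26a1 repeat 32 bases before the start site, with the Cyp26a1 repeat reading on the opposite strand. The match describes these letters and was not tested for binding. Both genes had few counts, which are given further on.

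The libraries held 15585324 to 19164405 counts, and 3 counts, the limit that a count of 0 allows, equalled 0.152 to 0.187 CPM, the unit used throughout: counts scaled to a common library total after TMM normalisation. These limits cover counting error only. Krt5, a basal keratin, averaged 1123 ± 36.5 CPM in mixed, 17.7 ± 5.16 in luminal and 1842 ± 244 in basal aggregates (SD, n = 3 each), while Elf5, a factor of alveolar luminal progenitors, averaged 168 ± 6.47, 149 ± 17.5 and 25.9 ± 3.599 CPM in the same order. The labels thus matched these markers, although Krt14 reached 2114 ± 718 CPM in luminal and Krt8 reached 965 ± 71.3 CPM in basal aggregates. The 8 luminal markers summed to 21942 to 24824 CPM in mixed, 10123 to 18599 in luminal and 3976 to 5052 in basal libraries. Of them, Krt19, Cldn7 and Wfdc18 averaged highest in mixed aggregates, and Krt8, Krt18, Muc1, Cldn3 and Cldn4 in luminal ones. Among progenitor markers, Kit averaged 500 CPM in mixed and 244 in luminal aggregates, while Cd14, Plet1 and Lif averaged highest in luminal ones. Csn2 averaged 0.432 CPM in mixed, 0 in luminal and 0.294 in basal aggregates. Of 7 hormone-sensing luminal markers, Esr1, Pgr, Prlr, Foxa1 and Areg averaged highest in mixed aggregates, and Ly6a and Prom1 in luminal ones. Column names of the count table carry 3 code series whose meaning is not stated. Series A holds all 3 mixed libraries and basal 2, series B holds luminal 1, basal 1 and basal 3, and series C holds luminal 2 and luminal 3. Basal 2 and mixed 3 stood apart within their groups, with correlations across genes of log2 CPM of 0.927 to 0.936 for basal 2 and 0.922 to 0.932 for mixed 3, against 0.986 between basal 1 and basal 3 and 0.948 between mixed 1 and mixed 2. In bulk libraries, fewer cells of a type and less RNA per cell cannot be told apart.

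Stra6 (chr9:57971071-58061279, plus strand, mm39), the membrane receptor that takes up retinol from its blood carrier, was barely counted. It had 0 counts in all 3 mixed libraries. Luminal 3 had 6 counts and the other luminal libraries 0, and basal 2 had 5 counts and the other basal libraries 0. The groups could not be ordered at this depth.

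Rbp7 (chr4:149534144-149539435, minus strand), a cellular retinol-binding protein best known from fat and endothelium, was far higher in mixed aggregates than in either pure kind. Mixed libraries had 94.0, 71.9 and 89.0 CPM, against 2.75, 6.71 and 6.35 CPM in luminal and 10.4, 34.7 and 13.97 CPM in basal libraries. The lowest mixed library lay above the highest pure one, and every luminal library lay below every basal one. The fitted log2 difference was 4.01 ± 0.43 (SE) for mixed against luminal, or 16.2-fold, and 2.11 ± 0.41 for mixed against basal, or 4.32-fold. Luminal against basal it was -1.91 ± 0.43. Basal 2, the only pure library of code series A, had the highest pure level, and without it the log2 differences were 2.79 for mixed against basal and -1.22 for luminal against basal.

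Markers of other cell types were read beside Rbp7. The summed level of 7 endothelial markers was 3.09 to 7.08 CPM in mixed, 0.178 to 2.86 CPM in luminal and 0.827 to 3.80 CPM in basal libraries, so that 2 of the 3 mixed libraries lay within the basal range. Cdh5, the endothelial cadherin, had 20, 0 and 53 counts in mixed libraries and at most 3 counts in any pure one. Pecam1 averaged 2.22 CPM in mixed, 0.509 in luminal and 1.42 in basal aggregates, Kdr averaged 0.478, 0.104 and 0.163 CPM, and Tek averaged 0.436, 0.191 and 0.648 CPM. Emcn, Esam and Cldn5 had 0 counts in all mixed libraries. The 7 fibroblast markers summed to 17.7 to 38.7 CPM in mixed, 6.53 to 10.4 CPM in luminal and 22.2 to 30.6 CPM in basal libraries. The 6 adipocyte markers summed to at most 1.32 CPM in any library. Of them, Fabp4 averaged 0.521 CPM in mixed, 0.277 in luminal and 0.292 in basal aggregates and Cidec 0.229, 0.103 and 0 CPM, while Adipoq, Plin1, Lep and Retn had 0 counts in all mixed libraries. The 9 immune markers summed to 41.8 to 63.2 CPM in mixed, 1.42 to 3.61 CPM in luminal, and 1.44, 2.69 and 47.2 CPM in basal libraries, the highest being basal 2. Most of that came from Cd74, with 29.8 ± 5.73 CPM in mixed aggregates, and Lyz2, with 18.4 ± 13.4 CPM, while Ptprc, which marks white blood cells, did not exceed 0.744 CPM. The immune sum was thus high in the 4 libraries where Rbp7 was highest, which are those of code series A. Within them the immune sum and Rbp7 were not ordered alike. The immune sum was 41.8, 63.2 and 53.8 CPM in mixed 1 to 3 and 47.2 CPM in basal 2. Rbp7 was at 94.0, 71.9, 89.0 and 34.7 CPM in the same order. The part of these cell types, or of the code series, in the Rbp7 levels was not tested.

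Crabp2 (chr3:87855973-87860683, plus strand), which carries retinoic acid to the nuclear receptors, was 3.13-fold higher in luminal and 2.92-fold higher in mixed than in basal aggregates. Mixed libraries had 123, 121 and 122 CPM and luminal libraries 136, 139 and 118 CPM, against 40.8, 38.7 and 45.7 CPM in basal libraries. Mixed and luminal libraries overlapped and both lay wholly above basal ones. The log2 difference was 1.65 ± 0.15 for luminal against basal, 1.55 ± 0.15 for mixed against basal and -0.10 ± 0.15 for mixed against luminal. Crabp2 was the steadiest member among mixed libraries, at 122 ± 1.13 CPM (SD, n = 3).

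**Figure D1:**
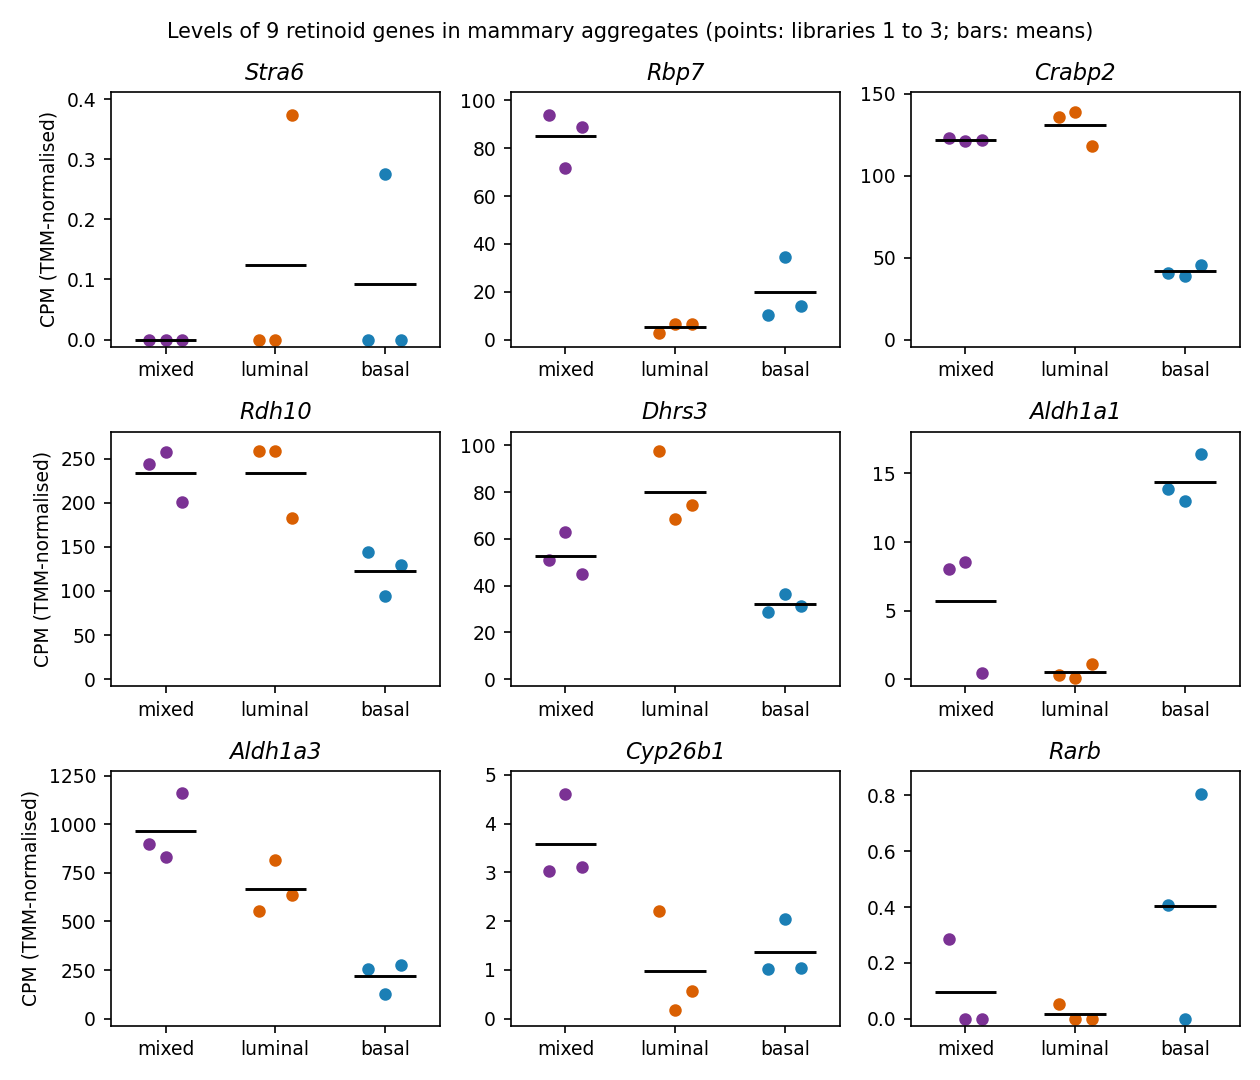
TMM-normalised CPM (vertical axis) of the 9 members in mixed, luminal and basal aggregates, with 1 point for each of libraries 1 to 3 and a bar for the group mean. Rbp7 sat at 71.9 to 94.0 CPM in mixed libraries and at most 34.7 CPM in pure ones, while Aldh1a1 was at 0.436 CPM in mixed 3 and 8.07 and 8.55 CPM in the other mixed libraries.

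Rdh10 (chr1:16175998-16203958, plus strand), which oxidises retinol to retinal, and Dhrs3 (chr4:144619397-144654779, plus strand), which reduces retinal back to retinol, act against each other and were both lowest in basal aggregates. Rdh10 had 244, 258 and 200 CPM in mixed and 258, 259 and 183 CPM in luminal libraries, against 144, 94.7 and 129 CPM in basal libraries. Its mixed and luminal ranges overlapped, with a log2 difference of 0.00 ± 0.21, and both lay above the basal range by 0.93 ± 0.21. Dhrs3 had 50.9, 62.8 and 44.8 CPM in mixed, 97.4, 68.5 and 74.3 CPM in luminal and 28.8, 36.2 and 31.05 CPM in basal libraries. Its 3 groups did not overlap, with mixed between the pure kinds. The log2 difference of Dhrs3 was 1.32 ± 0.20 for luminal against basal, 0.72 ± 0.20 for mixed against basal and -0.60 ± 0.20 for mixed against luminal.

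The pair was also set against each other within a library, per kilobase of exon, which does not depend on scaling between libraries. Rdh10 exceeded Dhrs3 by 3.38-, 2.89- and 3.14-fold in mixed libraries, by 1.87-, 2.66- and 1.73-fold in luminal libraries, and by 3.52-, 1.84- and 2.92-fold in basal libraries. Each mixed library had a higher ratio than each luminal one, and basal libraries spanned both. On the same per-length scale, Crabp2 stood at 1.23, 1.41 and 1.16 times Fabp5 in mixed libraries, 1.58, 2.32 and 1.24 times in luminal libraries, and 0.683, 0.335 and 0.605 times in basal libraries. Fabp5 encodes a fatty acid-binding protein that can also deliver retinoic acid, to a different receptor. Per length, Crabp2 was the higher of the pair in every mixed and luminal library and the lower in every basal library. That order rests on exon lengths of 1322 bases for Crabp2 and 3567 bases for Fabp5. In CPM, without division by length, Fabp5 was the higher in every library. Fabp5 had 231 to 283 CPM in mixed and 161 to 257 CPM in luminal libraries, where Crabp2 had 121 to 123 and 118 to 139 CPM.

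**Figure D2:**
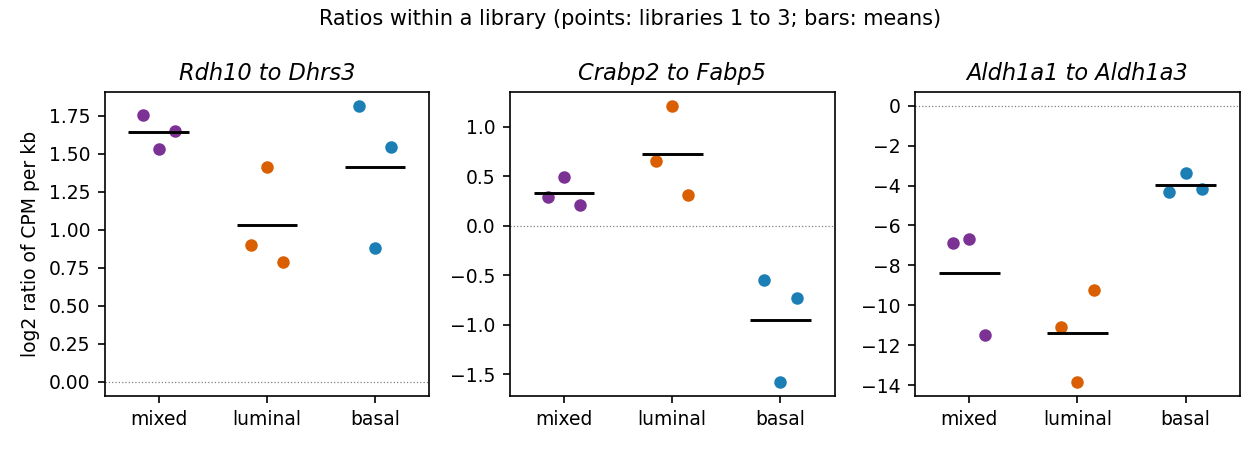
Log2 ratio of levels per kilobase of exon (vertical axis) for 3 gene pairs in mixed, luminal and basal aggregates, with 1 point for each library and a bar for the group mean. On this per-length scale the Crabp2 to Fabp5 ratio is above 0 in mixed and luminal libraries and below 0 in basal ones. In CPM, Fabp5 is the higher in every library. The Aldh1a1 to Aldh1a3 ratio of mixed 3, at -11.48, lies among the luminal values.

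Aldh1a3 (chr7:66040638-66077265, minus strand), which makes retinoic acid from retinal, was the most abundant member and highest in mixed aggregates. Mixed libraries had 898, 832 and 1162 CPM, luminal libraries 555, 814 and 638 CPM, and basal libraries 256, 126 and 277 CPM. The 3 groups did not overlap, although mixed 2 at 832 CPM lay close to luminal 2 at 814 CPM. The log2 difference was 2.13 ± 0.28 for mixed against basal, 1.61 ± 0.28 for luminal against basal and 0.53 ± 0.28 for mixed against luminal, and the last was 0.36 without mixed 3.

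Aldh1a1 (chr19:20470079-20620829, plus strand), which catalyses the same step, ran the other way and was highest in basal aggregates. Luminal libraries had 0.270, 0.0593 and 1.12 CPM, or 5, 1 and 18 counts, against 13.8, 13.01 and 16.4 CPM in basal libraries. Every luminal library lay far below every basal one, by a log2 difference of -4.90 ± 0.96, or 29.8-fold. Mixed libraries split, with 8.07 and 8.55 CPM in mixed 1 and mixed 2 and 0.436 CPM, or 8 counts, in mixed 3. Mixed 3 lay within the luminal range, and the other mixed libraries lay between the pure kinds. The log2 difference was -1.34 ± 0.84 for mixed against basal and 3.56 ± 0.96 for mixed against luminal, and without mixed 3 these were -0.81 and 4.10. Without luminal 3, the highest luminal library, the log2 difference was -6.37 for luminal against basal and 5.01 for mixed against luminal. Mouse Aldh1a7 is a close copy of Aldh1a1, and reads that align to both were not counted for either, so both may be undercounted.

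Of the summed per-length level of Aldh1a1, Aldh1a2 and Aldh1a3, Aldh1a3 made up 99.17%, 99.05% and 99.96% in mixed, 99.95%, 99.99% and 99.84% in luminal, and 95.2%, 91.0% and 94.8% in basal libraries. Aldh1a1 thus accounted for 4.81%, 8.81% and 5.24% in basal libraries, above every other library. Aldh1a2, the enzyme of this step in most embryonic tissues, had 2 counts in basal 2 and none elsewhere.

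Cyp26b1 (chr6:84548396-84570890, minus strand), which breaks down retinoic acid, was low in all aggregates and highest in mixed ones. Mixed libraries had 3.03, 4.61 and 3.10 CPM, or 53 to 75 counts, against 2.21, 0.178 and 0.560 CPM in luminal and 1.01, 2.04 and 1.03 CPM in basal libraries. All mixed libraries lay above all pure ones, and luminal and basal libraries overlapped. The log2 difference was 1.85 ± 0.81 for mixed against luminal, 1.39 ± 0.80 for mixed against basal and -0.46 ± 0.82 for luminal against basal. Without luminal 1, the highest pure library, the first of these was 3.25 and the last -1.86. Per length, the ALDH1A sum exceeded Cyp26b1 by 346-, 211- and 434-fold in mixed, 291-, 5304- and 1322-fold in luminal and 308-, 78.4- and 328-fold in basal libraries. The highest of these rests on the 3 Cyp26b1 counts of luminal 2.

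Rarb (chr14:5650540-6038924, plus strand) encodes a retinoic acid receptor and is itself a well-known target of retinoic acid. It had 5, 0 and 0 counts in mixed, 1, 0 and 0 counts in luminal and 8, 0 and 14 counts in basal libraries. At most 0.805 CPM was reached, in basal 3, and each group held a library at 0, so the groups overlapped. Of its exon bases, 38.4% are shared with Top2b and Gm48162, where reads were assigned to no gene, so its counts cover only the rest. Cyp26a1, whose promoter holds the repeat of the same spacing, had 54, 32 and 3 counts in mixed, 0, 0 and 1 count in luminal and 0, 8 and 1 counts in basal libraries. It did not pass the filter and was not tested, and mixed 3 lay within the range of the basal libraries. Cyp26c1, the third enzyme of that family, had at most 2 counts in a library.

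**Figure D3:**
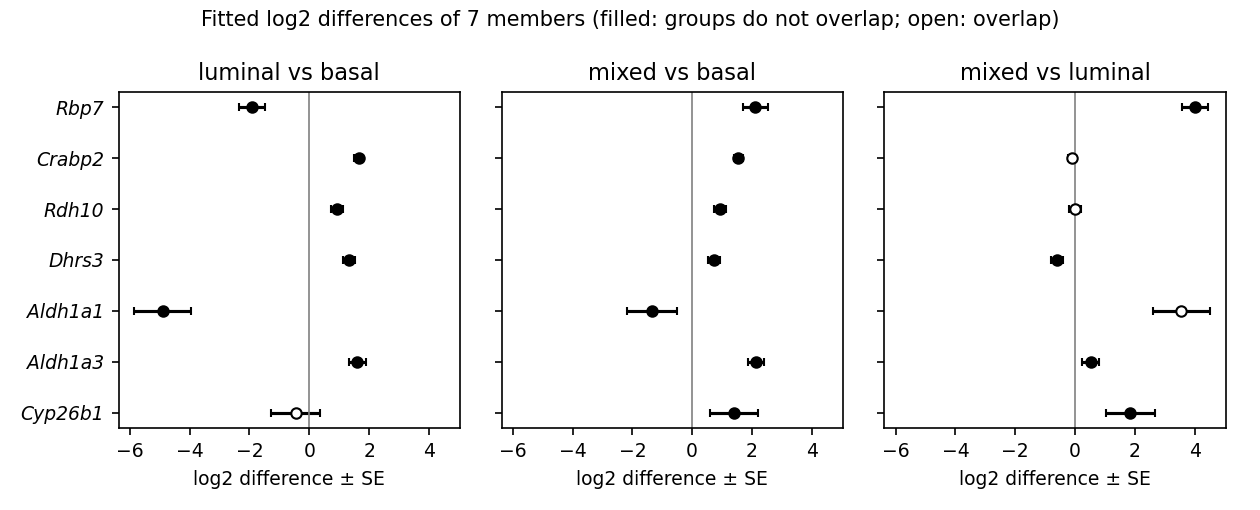
Fitted log2 differences with SE (horizontal axis) of the 7 members that passed the filter, for luminal against basal, mixed against basal and mixed against luminal. Filled points mark members whose groups of 3 libraries do not overlap, and open points mark overlap. Aldh1a1 is the member furthest below 0, at -4.90 for luminal against basal, and Rbp7 the furthest above, at 4.01 for mixed against luminal.

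For luminal against basal, 4 members had all luminal libraries above all basal ones (Rdh10, Crabp2, Dhrs3 and Aldh1a3) and 2 had them all below (Rbp7 and Aldh1a1). Over all 18051 tested genes, 23.2% did not overlap in the higher and 23.4% in the lower direction. For mixed against basal, 6 members were higher without overlap and Aldh1a1 was lower, where 14.5% and 18.7% of all tested genes were. For mixed against luminal, Aldh1a3, Rbp7 and Cyp26b1 were higher and Dhrs3 lower without overlap, where 25% and 26.1% of all tested genes were. Since the members were chosen with these values known, nothing is read from these counts against the background.

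Mixed libraries were next set against the mean of the pure kinds, the level that equal parts of both RNAs would give, although the share of RNA from each kind is not known. The mixed mean over this level was 6.81 for Rbp7, 3.05 for Cyp26b1, 2.17 for Aldh1a3, 1.41 for Crabp2, 1.32 for Rdh10, 0.943 for Dhrs3 and 0.763 for Aldh1a1. Over all tested genes the median was 0.929, with quartiles of 0.637 and 1.28. Rbp7, Cyp26b1 and Aldh1a3 had all 3 mixed libraries above all 6 pure ones, as had 5.02% of all tested genes. No member had all mixed libraries below all pure ones. Without basal 2 the value for Rbp7 was 9.66, and without mixed 3 the value for Aldh1a1 was 1.10.

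**Figure D4:**
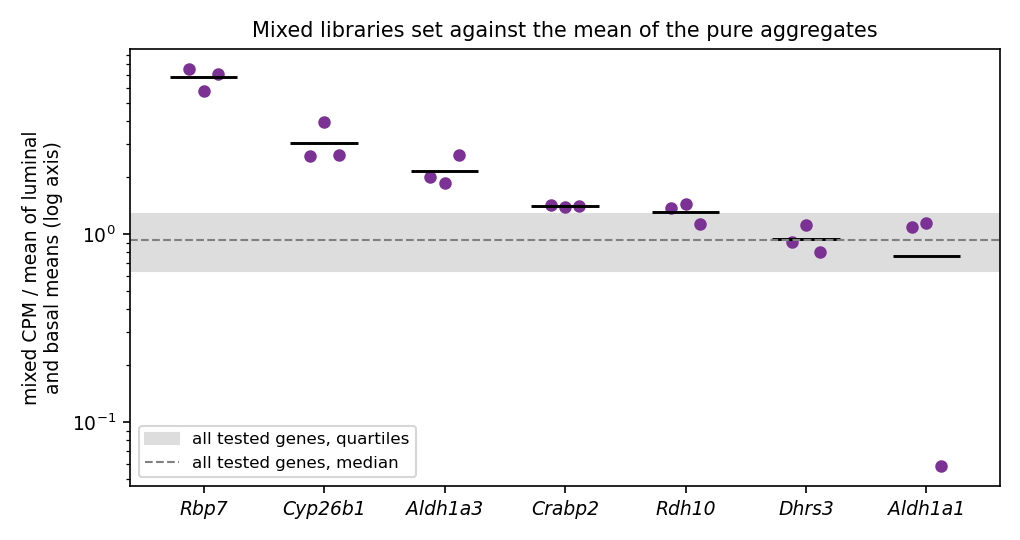
Level in each mixed library divided by the mean of the luminal and basal group means (vertical log axis), with 1 point for each mixed library, a bar for the mixed mean, and the median and quartiles of all tested genes as a dashed line and grey band. Rbp7, at 5.76 to 7.53, lies furthest above the band, and 1 library of Aldh1a1, at 0.0585, lies far below it.

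Within code series A, the mixed libraries could be set against basal 2 alone. Rbp7 had 71.9 to 94.0 CPM in mixed libraries against 34.7 CPM in basal 2, Cyp26b1 3.03 to 4.61 against 2.04 CPM, and Aldh1a3 832 to 1162 against 126 CPM. Crabp2, Rdh10 and Dhrs3 were likewise above basal 2 in every mixed library, and Aldh1a1 was below it in every mixed library. Within series B, luminal 1 was above both basal libraries for Aldh1a3, Crabp2, Rdh10 and Dhrs3 and below both for Rbp7 and Aldh1a1, as in the groups as a whole. Cyp26b1 was the exception, with 2.21 CPM in luminal 1 against 1.01 and 1.03 CPM in basal 1 and basal 3. Mixed and luminal libraries never shared a series. With the code series as a term in the fit, the log2 difference of Rbp7 was 1.29 for mixed against basal and 3.43 for mixed against luminal, that of Aldh1a3 was 2.94 and 1.88, and that of Cyp26b1 was 0.81 and -0.29, so the last changed sign.

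The members did not share 1 pattern over the 9 libraries. By root mean square difference of gene-centred log2 CPM, Rdh10 and Crabp2 were the closest pair at 0.36, followed by Rdh10 and Dhrs3 at 0.38 and Crabp2 and Dhrs3 at 0.40. Aldh1a1 was 2.34 or more from each of the other members above 5 CPM. Among tested genes above 10 CPM, the 3 nearest to Aldh1a3 were Nipal1, Alpl and Gbp2, at 0.20 to 0.29. The nearest to Rbp7 were Wif1, Spink5 and Plac9a, at 0.70 to 0.72, and those to Aldh1a1 were Speg, Lacc1 and Cntfr, at 0.78 to 1.04. The nearest to Crabp2 were Rnf130, Mllt3 and Cxadr, those to Rdh10 were Zscan26, Pard3b and Ttll5, and those to Dhrs3 were Atp6v1h, Mboat2 and Rhou, all within 0.20. These are distances over 9 libraries that share groups and code series.

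A list of 50 other retinoid pathway genes was read beside the members, of which 31 passed the filter and could be tested by edgeR's quasi-likelihood test with Benjamini-Hochberg adjustment over all 18051 genes. Of the 19 that did not pass, 4 had 0 counts in every library and none exceeded 54 counts. For luminal against basal, 5 of the 31 rose and 5 fell at an adjusted p below 0.05, where 12.8% and 14.4% of all tested genes did. For mixed against basal, 4 rose and 1 fell, where 6.39% and 7.33% did. For mixed against luminal, 5 rose and 5 fell, where 15.2% and 14.2% did. The median log2 difference of the 31 was 0.30, -0.07 and 0.00 in these comparisons, beside -0.02, -0.07 and -0.05 over all tested genes. Comparisons share groups, so their counts are not independent of each other. This list too was drawn up with earlier results of these data known, so nothing is read from its counts against the background. With the code series as a term, 3 rose and 3 fell for luminal against basal, 1 rose for mixed against basal, and 1 rose for mixed against luminal, so code series and group can be told apart only in part. Those called in that fit and described here were Tgm2, Dgat1 and Rara (higher) and Adh7 and Rdh11 (lower) for luminal against basal, Tgm2 for mixed against basal and Adh7 for mixed against luminal.

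Among the carriers, Crabp1, the paralog of Crabp2, was absent from the counts of luminal libraries. It had 20, 0 and 17 counts in mixed, 0 in all luminal and 75, 64 and 103 counts in basal libraries. Against the floor of 3 counts per library it was at least 23.7-fold lower in luminal than basal aggregates (adjusted p = 0.00349), and at least 3.70-fold higher in mixed than luminal ones (adjusted p = 0.0223). The call for mixed against luminal was lost without luminal 1, luminal 3 or mixed 1 (adjusted p up to 0.0613) and with limma-voom. With the code series as a term both calls were lost (adjusted p = 0.0894 for luminal against basal and 0.483 for mixed against luminal). Crabp2 and Crabp1 thus had opposite orders in luminal and basal libraries.

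Rbp4 and Ttr, which carry retinol in blood, were low throughout. Rbp4 averaged 6.42 ± 3.43 CPM in mixed, 4.87 ± 1.41 in luminal and 1.22 ± 0.85 in basal aggregates, and was higher than basal in mixed (2.39 ± 0.62, adjusted p = 0.0311) and luminal aggregates (1.99 ± 0.62, adjusted p = 0.0373). Without 1 library its adjusted p reached 0.129 for mixed against basal, where leaving out basal 3, mixed 1 or mixed 2 ended the call, and 0.123 for luminal against basal, where basal 2, basal 3, luminal 2, luminal 3 or mixed 1 did. Both calls also ended with limma-voom and with the code series as a term (adjusted p = 0.101 and 0.509), the first with the 2 groups alone and with the replicate block, and the last with library totals as scaling. Without basal 1, its highest basal library, the log2 differences of Rbp4 were 3.11 for mixed and 2.74 for luminal against basal. Ttr had 14, 28 and 24 counts in mixed, 0, 0 and 1 in luminal and 1, 2 and 0 in basal libraries. It was called higher in mixed than luminal (5.58 ± 1.73, adjusted p = 0.0137) and basal aggregates (4.39 ± 1.30, adjusted p = 0.0409), on counts so low that the differences were 7.51 without luminal 3 and 5.25 without basal 2. Leaving out luminal 1 or luminal 2 ended its call against luminal (adjusted p up to 0.0694), and leaving out any library but basal 2 ended that against basal (adjusted p up to 0.184). Both ended with the code series as a term (adjusted p = 0.628 and 0.405), and the call against basal also with every gene with a count kept, with the 2 groups alone and with the replicate block. Fabp5, at 262 ± 27.3 CPM in mixed, 217 ± 49.7 in luminal and 226 ± 77.8 in basal aggregates, passed in no comparison.

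Among 9 tested oxidoreductases of retinol and retinal, Adh7 and Rdh11 were lower in luminal than in basal aggregates. Adh7, an alcohol dehydrogenase that oxidises retinol, had 20.4, 19.3 and 13.7 CPM in mixed, 0.108, 1.42 and 0.249 CPM in luminal and 9.94, 20.2 and 8.80 CPM in basal libraries. It fell by 4.44 ± 0.67 in luminal against basal (adjusted p = 0.000621) and was higher by 4.90 ± 0.67 in mixed against luminal aggregates (adjusted p = 0.000682). Without luminal 2, its highest luminal library, these differences were -6.16 and 6.60. Rdh11, a retinal reductase, fell by 1.43 ± 0.24 in luminal against basal (adjusted p = 0.000932) and was higher by 1.04 ± 0.24 in mixed against luminal aggregates (adjusted p = 0.0091), the last ending with the code series as a term (adjusted p = 0.654). Rdh5, a retinol dehydrogenase best known from the eye, averaged 2.10 ± 0.17 CPM in mixed against 5.95 ± 2.36 CPM in luminal aggregates (-1.50 ± 0.48, adjusted p = 0.0402), and leaving out any library but basal 2 ended that call (adjusted p up to 0.18), as did limma-voom, every gene with a count kept, the replicate block and the code series (adjusted p = 0.959). Rdh5 shares 25.6% of its exon bases with Bloc1s1. Aldh1a7 averaged 3.51 ± 1.57 CPM in mixed, 1.80 ± 1.11 in luminal and 4.44 ± 0.33 in basal aggregates and passed in no comparison (adjusted p = 0.113 for luminal against basal).

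Dgat1 and Lipe, of the group that makes and cleaves retinyl esters, were highest in luminal aggregates. Dgat1, an acyltransferase that can esterify retinol, averaged 35.2 ± 6.70 CPM in mixed, 119 ± 9.22 in luminal and 52.5 ± 8.999 in basal aggregates. It rose by 1.18 ± 0.19 in luminal against basal (adjusted p = 0.000781) and fell by 1.75 ± 0.19 in mixed against luminal aggregates (adjusted p = 0.000101), the last ending with the code series as a term (adjusted p = 0.116). Lipe, a hydrolase of stored esters, averaged 7.54 ± 3.52, 30.5 ± 5.22 and 10.4 ± 2.61 CPM in mixed, luminal and basal aggregates. It rose by 1.55 ± 0.36 in luminal against basal (adjusted p = 0.00821) and fell by 2.02 ± 0.36 in mixed against luminal aggregates (adjusted p = 0.00291), and both calls were lost with the code series as a term (adjusted p = 0.1 and 0.444). Of its exon bases 15.6% are shared with 4732471J01Rik. Scarb1, which takes up carotenoids and lipids, was lower in luminal than basal aggregates (64.6 ± 3.997 against 93.7 ± 2.80 CPM, -0.54 ± 0.18, adjusted p = 0.0455). Leaving out any library but mixed 2 or mixed 3 ended that call (adjusted p up to 0.154), as did RLE scaling, every gene with a count kept, the replicate block and the code series (adjusted p = 0.198).

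Of the 5 other receptor genes, 4 passed the filter, and Rxrg had 0 counts in all 9 libraries. Rara, which encodes the alpha receptor, had 87.2, 90.7 and 55.2 CPM in mixed, 129, 102 and 81.4 CPM in luminal and 40.6, 50.0 and 40.7 CPM in basal libraries. It rose by 1.25 ± 0.23 in luminal against basal aggregates (adjusted p = 0.00175). It was also higher in mixed than basal aggregates by 0.83 ± 0.23 (adjusted p = 0.0351), a call lost without basal 1, basal 3, luminal 2, mixed 1 or mixed 2 (adjusted p up to 0.139), with library totals as scaling and with the code series as a term (adjusted p = 0.306). Rxrb, encoding a partner of the RARs, had 49.2, 45.0 and 32.9 CPM in mixed, 95.2, 90.2 and 97.7 CPM in luminal and 86.1, 55.7 and 85.0 CPM in basal libraries. It fell by 1.16 ± 0.21 in mixed against luminal (adjusted p = 0.0026) and by 0.84 ± 0.21 in mixed against basal aggregates (adjusted p = 0.023), the last ending without basal 1, basal 3, mixed 2 or mixed 3 (adjusted p up to 0.101) and with the 2 groups alone. Both ended with the code series as a term (adjusted p = 0.618 and 0.448). Rarg, at 81.4 ± 0.73, 69.7 ± 14.1 and 72.4 ± 4.01 CPM in mixed, luminal and basal aggregates, and Rxra, at 120 ± 10.3, 139 ± 9.79 and 136 ± 15.6 CPM, passed in no comparison.

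Of 11 genes listed as receptor targets, 5 passed the filter and Tgm2 alone was called. Tgm2, a transglutaminase induced by retinoic acid in many cells, had 298, 294 and 165 CPM in mixed, 368, 471 and 658 CPM in luminal and 113, 62.1 and 98.7 CPM in basal libraries. The groups did not overlap. It rose by 2.45 ± 0.30 in luminal against basal (adjusted p = 0.000123) and by 1.47 ± 0.30 in mixed against basal aggregates (adjusted p = 0.00977). It fell by 0.98 ± 0.30 in mixed against luminal aggregates (adjusted p = 0.0292), a call lost without luminal 3 or mixed 3 (adjusted p up to 0.118) and with the code series as a term (adjusted p = 0.938). Of its exon bases 21.8% are shared with Gm20412 and Rprd1b. Nrip1, Meis1, Meis2 and Hic1 did not pass in any comparison.

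**Figure D5:**
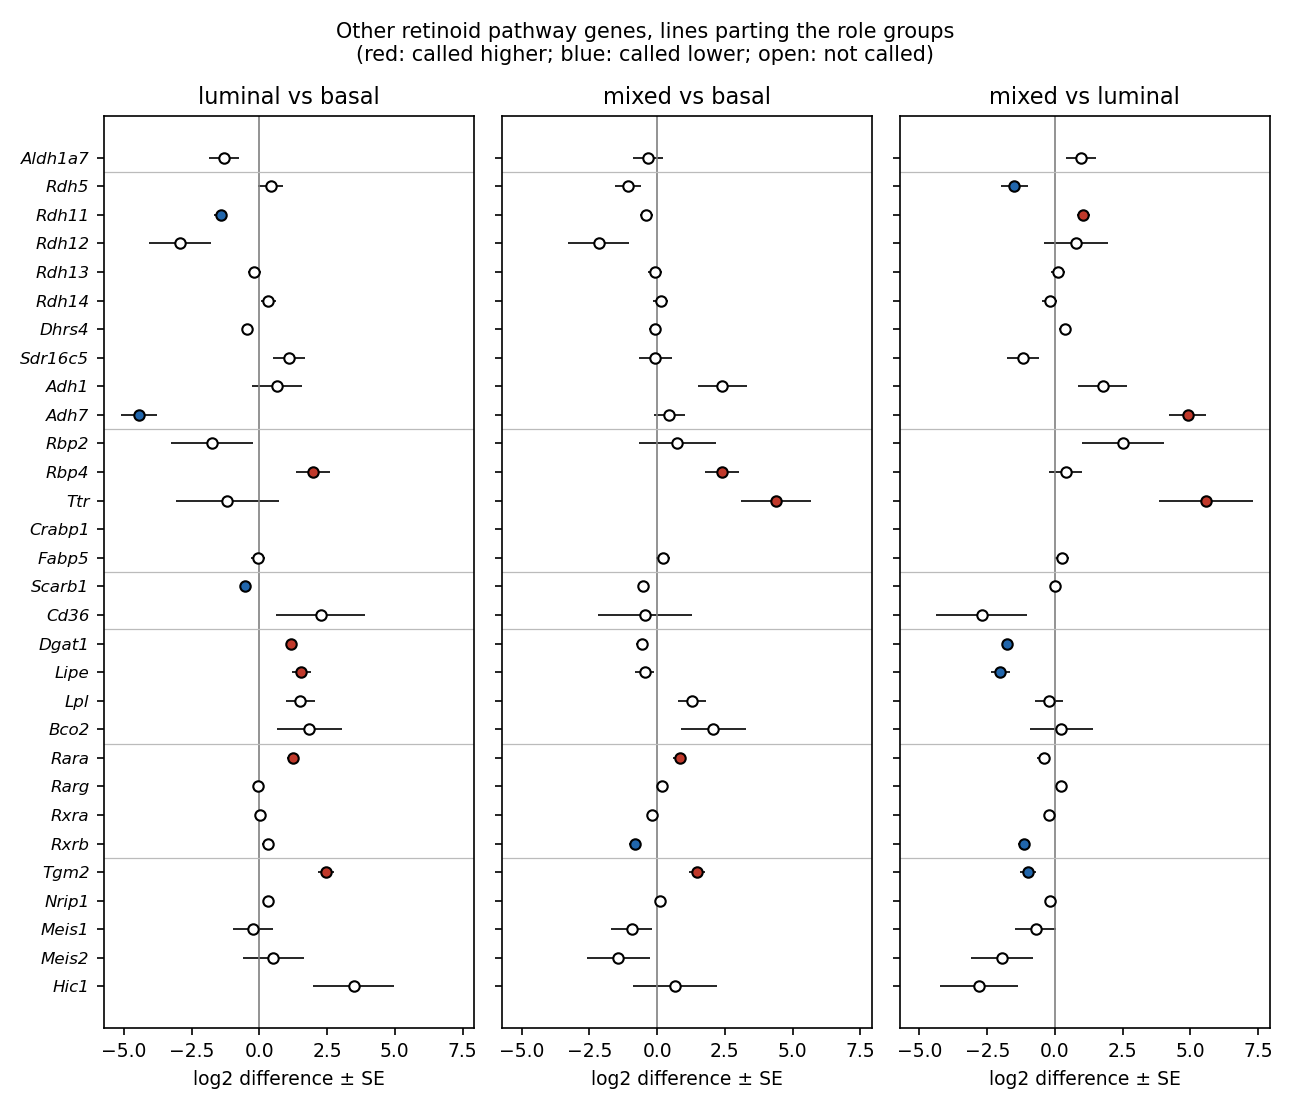
Log2 differences with SE (horizontal axis) of tested other pathway genes in 3 comparisons, with red for called higher, blue for called lower and open for not called at an adjusted p of 0.05, and lines parting the role groups. Crabp1 is not drawn because its luminal libraries are all at 0. Adh7 lies at -4.44 for luminal against basal and at 4.90 for mixed against luminal.

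None of the 31 lay outside both pure kinds in mixed aggregates when the larger edgeR p of the 2 mixed comparisons was adjusted over all genes, and 4 did at an unadjusted p below 0.05. These were Ttr above and Rxrb, Dgat1 and Rdh5 below both pure kinds. In each of these 4, all 3 mixed libraries lay outside the range of all 6 pure ones, as in the members Rbp7, Cyp26b1 and Aldh1a3. The share of all tested genes at the unadjusted threshold was not computed, so nothing is read from the count of 4. By the adjusted rule, 0.0499% of all tested genes lay above and 0.0388% below both pure kinds, so few genes of any kind passed it. Leaving out 1 library moved the count of all genes called for mixed against basal aggregates most, with 2477 genes called on all libraries, 5120 without basal 2, 1176 without basal 1 and 963 without basal 3. For mixed against luminal aggregates, 5309 genes were called on all libraries, 3243 without luminal 1 and 2967 without luminal 3.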

How the data were processed

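RNA was measured by stranded mRNA sequencing. Unnormalised counts for each gene name make up the authors' deposited table. Per the submitters' processing notes, Trim Galore, Subread and featureCounts were used with the build mm39, and per the file headers featureCounts 2.0.1 counted read pairs over exons summed by gene name. The header's command does not use strand, so antisense overlaps cannot be told apart, and it counts neither reads with several alignments nor reads that overlap several genes. Aligner settings and the annotation release were not given in the sources used here.

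The members and the gene lists were chosen with earlier results of these data known. Genes passed filterByExpr, libraries were scaled by TMM, and all 9 libraries were fitted with group as the only factor by edgeR 4.0.16 in R 4.3.3 (robust quasi-likelihood test, two-sided, Benjamini-Hochberg adjustment over 18051 genes, threshold 0.05), leaving 6 residual degrees of freedom. The fit was also run on simulated counts with changes planted in luminal libraries. That simulation held no code series effect, so it says nothing on the overlap of series and group. CPM carry no pseudocount, the SE is that of the fitted coefficient, and distances between genes took a prior count of 2 before the log2. Depth was 15585324 to 19164405 counts per library. Other genes were named by rule: the tested receptors, the paralogs of members, and up to 2 called genes per direction, role and comparison with the largest log2 difference, besides label markers and the 3 genes nearest to each member above 5 CPM. Libraries carry the numbers of the titles. Same-numbered libraries did not deviate together. The settings varied were the scaling, the filter, the tool (DESeq2 1.42.0 and limma-voom from limma 3.58.1), only the 2 groups compared, a replicate block, the code series as a term, and each library left out in turn. Leaving out basal 2 and mixed 3 together was added after seeing the data. A further pathway gene is counted among those tested and is not reported here by name.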

Additional observations from a re-analysis of the deposited data

How the results depend on the processing

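Of 21 log2 differences of members under 19 alternatives, the sign changed only for Rdh10 and Crabp2 between mixed and luminal aggregates, both near 0, and for Cyp26b1, in 2 alternatives for luminal against basal and in 1 for mixed against luminal. Scaling by library totals alone moved the median log2 difference of all genes to -0.17 for luminal against basal and -0.22 for mixed against basal, where TMM gave -0.02 and -0.07. The share of called genes that were higher was then 35.0% and 33.6%, where TMM gave 47.0% and 46.5%.

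For mixed against basal aggregates, all genes called were 4173 by DESeq2, 3903 with every gene with a count kept, 853 with the code series as a term and 5129 without basal 2 and mixed 3. Of the other pathway genes, those lower numbered 3 with library totals and with limma-voom, 5 by DESeq2, 4 with every gene kept, 0 with the code series and 4 without both libraries, and those higher numbered 2 in a fit of the 2 groups only, 1 with the code series and 8 without both libraries. With the code series as a term, luminal against basal gave 2507 genes, of which 3 pathway genes were higher and 3 lower. Mixed against luminal then gave 491 genes, of which 1 pathway gene was higher and 0 were lower. In that fit the log2 difference between mixed and luminal aggregates was 0.23 for Tgm2 and 0.32 for Rdh5, the reverse of their sign without the term. Of the calls for mixed against luminal, only Adh7 passed with it (adjusted p = 0.0357). The cause was not tested.

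Leaving out 1 library at a time gave 3678 to 5393 genes for luminal against basal, 963 to 5120 for mixed against basal and 2967 to 6774 for mixed against luminal. Pathway genes higher and lower ranged over 4 to 5 and 4 to 6, 1 to 6 and 0 to 3, and 3 to 6 and 3 to 5 in these comparisons.

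Replicate numbers did not pair the libraries, with correlations of group-centred values of -0.17 to 0.20 between same-numbered libraries and 4 of 9 closest to their own number. With a replicate block 2 pathway genes were called higher for mixed against basal, without Rbp4 and Ttr, and the calls of Rdh5 for mixed against luminal and Scarb1 for luminal against basal were lost.

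At 3 libraries a group, low members such as Cyp26b1, Rarb and Stra6 are limited by their counts, and Aldh1a1 in luminal libraries rests on 24 counts.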
